A study of Homo sapiens with 6 samples.

Results

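Glutamine amidotransferases are enzymes that split the amide nitrogen off glutamine and pass it to another molecule. The 10 described here are asparagine synthetase (ASNS), the pyrimidine enzymes CAD, CTPS1 and CTPS2, the purine enzymes PPAT, PFAS and GMPS, the hexosamine enzymes GFPT1 and GFPT2, and NAD synthetase (NADSYN1). They were chosen by function, with earlier results of these data known. They are the rows with these symbols among the 24462 distinct gene symbols of the count files. All 10 were found, each on 1 row. The cells were H460, an established line from a human lung cancer, in all 6 libraries. In the depleted group (3 libraries) they had spent 24 h in RPMI 1640 that lacked glutamine and held 10% dialyzed fetal bovine serum, and in the replete group (3 libraries) they had glutamine. RNA was sequenced from the 3′ end of the transcripts. The labels give undialyzed serum for routine growth and do not give the serum of the replete cells over those hours, so a part of the serum in the differences cannot be told apart from that of glutamine. Nothing in the labels says that replicate libraries are separate cultures, and the p-values therefore cover the spread between these libraries, which may be technical.

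In cells, glutamine carries nitrogen in 2 positions, and these enzymes use the amide position. Most of them have a glutaminase part that frees ammonia and a channel that leads it to a synthase part, where it is built into asparagine, carbamoyl phosphate, CTP, a purine precursor, GMP, glucosamine 6-phosphate or NAD. Growing tumour cells spend much of this nitrogen on nucleotides. The gene of asparagine synthetase is a textbook target of the amino acid response, in which uncharged tRNA activates the kinase GCN2 (gene EIF2AK4) and the transcription factor ATF4 is translated more.

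The ASNS promoter is printed because it holds the best-known regulatory element among these genes. The capitals mark, in order, a match to the C/EBP-ATF composite element, which ATF4 binds (CARE, letters TGATGNAAN), and a match to a second nutrient-sensing element of this promoter (GTTACA, a search added after the values were seen). The stretch covers the 150 bases before the annotated start at chr7:97872409-97872558 on the minus strand (RefSeq, GRCh38.p14), a different build from the hg19 that the submitters' processing notes name, and is used for sequence only.
ASNS: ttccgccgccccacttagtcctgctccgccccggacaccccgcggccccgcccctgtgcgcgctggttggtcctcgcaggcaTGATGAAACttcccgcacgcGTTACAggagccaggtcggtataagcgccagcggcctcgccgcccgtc
The CARE match began 68 bases and the GTTACA match 48 bases before the start. The windows searched ran from 250 bases before to 50 bases after each annotated start, on both strands, and all 10 genes had at least 1 window (13 windows in all). CARE was matched in windows of 1 of the 10 genes, ASNS, where 4.45% of the 27305 genes with a window had a match. GTTACA was matched for ASNS and for 1 of the 2 starts of CTPS1 (8.07% of all genes), and the E-box CACGTG, which MYC binds, was matched for PPAT (8.77% of all genes). These are matches of letters, and other genes of the pathways described below share the CARE letters, as these 29-base stretches show, with the match in capitals and each read in the direction of the motif.
ASNS, chr7:97872458-97872486, minus strand: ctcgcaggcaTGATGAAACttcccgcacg
GOT1, chr10:99430805-99430833, plus strand: ctgccgagaaTGATGCAACcaatgcaatt
SLC38A1, chr12:46266502-46266530, minus strand: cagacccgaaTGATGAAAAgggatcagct
JDP2, chr14:75427996-75428024, plus strand: tagccggggcTGATGCAACccgtcccgcc
Of the 11 genes with a CARE match among these 10 genes and the pathway and regulator lists, 8 were called higher, 2 lower and 1 neither, with a median log2 fold change of 1.02 and a range from −3.13 to 5.80. For those printed, the log2 fold change was 0.80 for ASNS, 2.45 for the cytosolic aspartate aminotransferase GOT1, 1.06 for the glutamine transporter SLC38A1 and −3.13 for JDP2, a regulator of the amino acid response. Over all 253 tested genes with a CARE match, 43.9% were called higher and 34.4% lower, beside 39.7% and 39.7% of the 9485 tested genes with a window.

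Library totals ran from 7550849 to 10914899 counts. CPM is the count scaled to a library total of 1000000, and 3 counts, the upper limit for a gene counted at 0 (counting error only), stood for 0.275 to 0.397 CPM. Depleted replicate 2 stood apart from the other depleted libraries: their counts differed from its counts by a chi-square of 18.0 and 10.9 for each degree of freedom, where the other pairs within a group gave 1.496 to 3.71. Of 6 epithelial markers 4 averaged at least 1 CPM, with EPCAM at most 0.505 CPM and CDH1 at most 0.126 CPM in any library. Their sum was 795 to 921 CPM in depleted and 2076 to 2101 CPM in replete libraries, of which KRT19 gave 290 to 380 and 1392 to 1414 CPM. KRT8 was called lower, KRT18 was not called, and KRT7 was called higher, at 33.8 to 40.8 against 8.59 to 9.27 CPM. The sums of 6 fibroblast markers were 38.8 to 115 and 28.5 to 41.8 CPM, those of 7 blood cell markers 4.73 to 6.19 and 7.42 to 10.5 CPM, and those of 5 endothelial markers at most 0.115 and 0.665 CPM, with VWF and CDH5 at 0. The highest fibroblast sum was that of depleted replicate 3, with COL1A1 at 56.5 and COL1A2 at 18.2 CPM. In the other depleted libraries COL1A1 was at 6.19 to 7.51 and COL1A2 at 0.183 to 0.344 CPM. COL3A1 and PDGFRB were called higher, LUM lower, COL1A1 and COL1A2 neither, and DCN was not tested. The part of these marker shifts in the results was not tested, and in bulk RNA fewer cells of a type and less RNA per cell cannot be told apart.

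The question was how the transcripts of these enzymes stood after a day without the nitrogen donor they use. The 10 genes split: ASNS and CTPS1 rose, CTPS2, CAD, GFPT2, GMPS, PPAT and PFAS fell, NADSYN1 did not pass, and the calls on PFAS and PPAT did not hold under 7 and 1 of the 17 alternatives. GFPT1 passed as higher under the main scaling but had a log2 fold change below 0 under library totals, under upper quartile factors and after a trend over GC content and length was removed. Fold changes are depleted relative to replete after trimmed-mean (TMM) scaling, and a call is a Benjamini-Hochberg adjusted p under 0.05 in edgeR's quasi-likelihood test over 12739 genes. All 10 genes passed the filter on low counts. By this rule 3 of the 10 were called higher, where 39.1% of all tested genes were, and 6 lower, where 39.4% were, so that 9 of 10 were called, against 78.6% of all tested genes. Called and at least 2-fold lower were 3 of 10, CTPS2, CAD and GFPT2, where 23.7% of tested genes were. The median log2 fold change was −0.38 for the 10 genes and −0.02 for all tested genes. In CPM of library totals, the ranges of the groups did not overlap for 9 of 10 genes, where this held for 81.0% of tested genes. NADSYN1 was among the 9, although it was not called with TMM factors. These shares lie near those of all genes, so the counts describe the 10 genes and do not set them apart. Leaving out depleted replicate 2 gave the same counts of 3 higher and 6 lower.

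**Figure D1:**
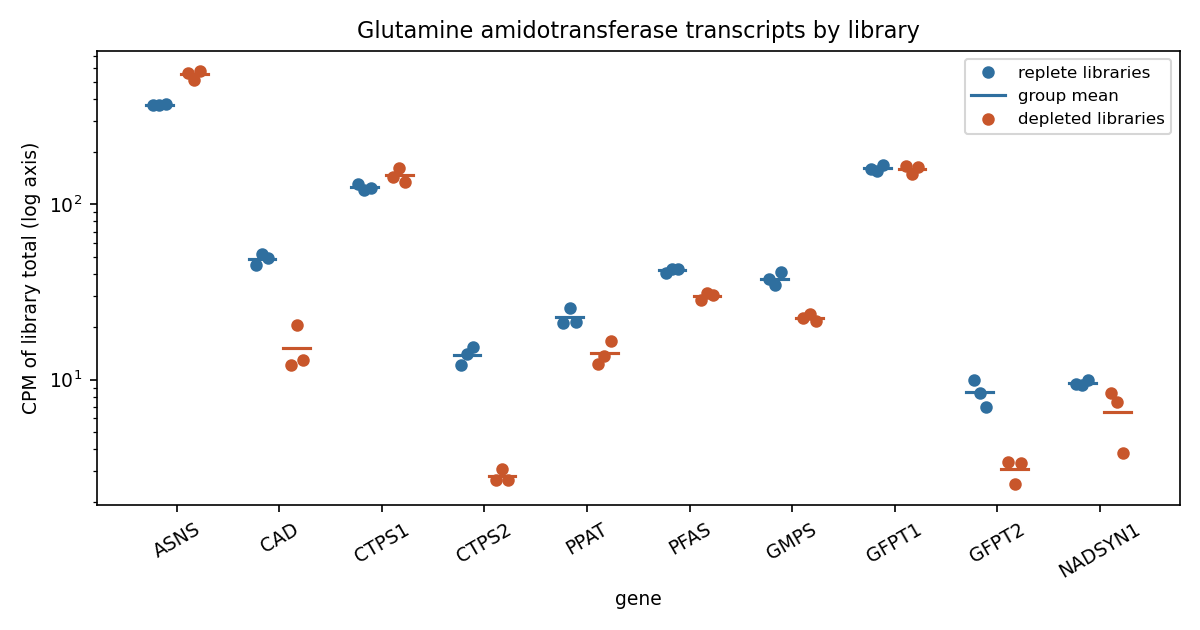
Level of each of the 10 amidotransferase genes in every library, as CPM of the library total on a log axis; points are libraries (3 replete, 3 depleted) and lines are group means. The CPM points of the groups overlap for GFPT1, whose call as higher depends on the scaling, and are apart for the other 9 genes. CTPS2 was at 2.65 to 3.09 CPM in depleted and 12.1 to 15.4 CPM in replete libraries. NADSYN1, though apart in CPM of library totals, was not called in the test with TMM factors.

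ASNS makes asparagine from aspartate, with glutamine as the nitrogen donor. It was counted at 567, 515 and 575 CPM in the depleted libraries and at 368, 372 and 373 CPM in the replete libraries. Every depleted library lay above every replete one, and the replete libraries were within 5 CPM of each other. ASNS rose 1.49-fold in mean CPM of library totals, from 371 ± 2.47 to 552 ± 32.3 (SD, n = 3 per group). With TMM factors, a different scaling, its log2 fold change was 0.80 (SE 0.06, 95% interval 0.66 to 0.94, edgeR adjusted p = 9.76e-08). Library totals alone gave the lowest of its values over the alternatives, 0.58. ASNS took 44.1% ± 0.416 of the summed counts of the 10 genes in replete and 58.0% ± 2.14 in depleted libraries. The sum of the 10 genes was 833, 835 and 853 CPM in replete and 965, 928 and 964 CPM in depleted libraries, and without ASNS it was 463 to 481 CPM in replete and 389 to 412 CPM in depleted libraries. The sum was thus higher in every depleted library, whereas the remainder without ASNS depends on the scaling: with TMM-scaled library sizes, chosen after the data were seen, it was 429, 449 and 419 CPM in depleted and 428, 429 and 445 CPM in replete libraries, which overlap. No test was made of these sums.

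Among 13 regulators of the amino acid response, 10 were called higher and 2 lower, where 39.1% and 39.4% of all tested genes were. Their median log2 fold change was 1.60. This list and the pathway lists below were chosen with earlier results of these data known. ATF4, the transcription factor that drives ASNS in textbook accounts, was at 829 ± 19.9 CPM with glutamine and 1950 ± 138 CPM without it (SD, n = 3 per group), and edgeR gave a log2 fold change of 1.46 at an adjusted p of 4.68e-10. PPP1R15A, which directs a phosphatase to eIF2α, had a log2 fold change of 5.78, and DDIT3, the stress factor CHOP, one of 3.60, although exons of DDIT3 overlap MARS and MBD6 on the other strand. EIF2AK4, the gene of the kinase GCN2, was at 59.4 ± 2.54 CPM with glutamine and 18.1 ± 3.52 CPM without it (−1.49 on the log2 scale), and JDP2, a bZIP repressor, fell by 3.13 on the log2 scale. The interval of the ASNS change, 0.66 to 0.94, lay below the values of ATF4, PPP1R15A and DDIT3; the differences between these genes were not tested.

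The tested genes whose profile over the 6 libraries was most like that of ASNS were TIAL1, SMARCA5 and CWC27. Likeness was the Euclidean distance between log2 CPM profiles centred on their means, among 8506 genes with a mean CPM of at least 10. TIAL1 encodes an RNA-binding protein, SMARCA5 a chromatin remodelling ATPase and CWC27 a spliceosome-associated isomerase. Their distances were 0.069, 0.072 and 0.073 and their log2 fold changes 0.79, 0.79 and 0.78. The distance takes in the difference between groups, so fold changes near that of ASNS follow from the selection.

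CAD is a multifunctional protein whose glutaminase and carbamoyl phosphate synthetase parts start pyrimidine synthesis. It was counted at 12.1, 20.4 and 12.9 CPM in depleted and at 45.2, 52.3 and 49.4 CPM in replete libraries. Depleted replicate 2 was the highest of its group, and the groups were far apart. CAD fell from 49.0 ± 3.57 to 15.1 ± 4.57 CPM (n = 3 per group), with a log2 fold change of −1.47 (SE 0.17, 95% interval −1.86 to −1.09, edgeR adjusted p = 1.02e-05). CAD fell under every alternative listed in the closing section, with log2 fold changes from −1.74 to −1.24.

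CTPS1 and CTPS2 are the CTP synthases, which aminate UTP to CTP. CTPS2 was counted at 2.66, 3.09 and 2.65 CPM in depleted and at 12.1, 14.02 and 15.4 CPM in replete libraries. These are 23 to 29 counts and 109 to 116 counts per library, so the level in depleted cells rests on few reads. CTPS2 fell 4.93-fold in mean CPM of library totals. With TMM factors its log2 fold change was −2.07 (SE 0.18, 95% interval −2.47 to −1.67, edgeR adjusted p = 2.78e-07), the largest fall among the 10 genes. CTPS1 was counted at 143, 161 and 135 CPM in depleted and at 130, 121 and 125 CPM in replete libraries. The CTPS1 ranges did not overlap, but depleted replicate 3 and replete replicate 1 were within 5 CPM of each other. CTPS1 rose by 0.45 on the log2 scale (SE 0.08, 95% interval 0.27 to 0.64, adjusted p = 0.000281 by edgeR), and by 0.22 with library totals alone.

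The ratio of CTPS1 to CTPS2 counts within a library does not depend on how libraries are scaled. It was 52.9, 51.2 and 49.9 in depleted and 10.8, 8.60 and 8.08 in replete libraries. The ratio was 5.65-fold higher in depleted cells, a difference of 2.50 on the log2 scale between group means of 5.68 ± 0.0434 and 3.18 ± 0.217 (n = 3 per group). All 3 depleted libraries lay above all 3 replete ones, and the two-sided exact permutation p was 0.1, the smallest that 3 against 3 libraries can give, so the design cannot reach 0.05 here. The p adjusted over the 2 paralogue pairs tested was also 0.1. The size of the ratio within a group also depends on how well each transcript end is captured, and only its change between groups is compared. Whether that capture differed between the groups was not tested.

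**Figure D2:**
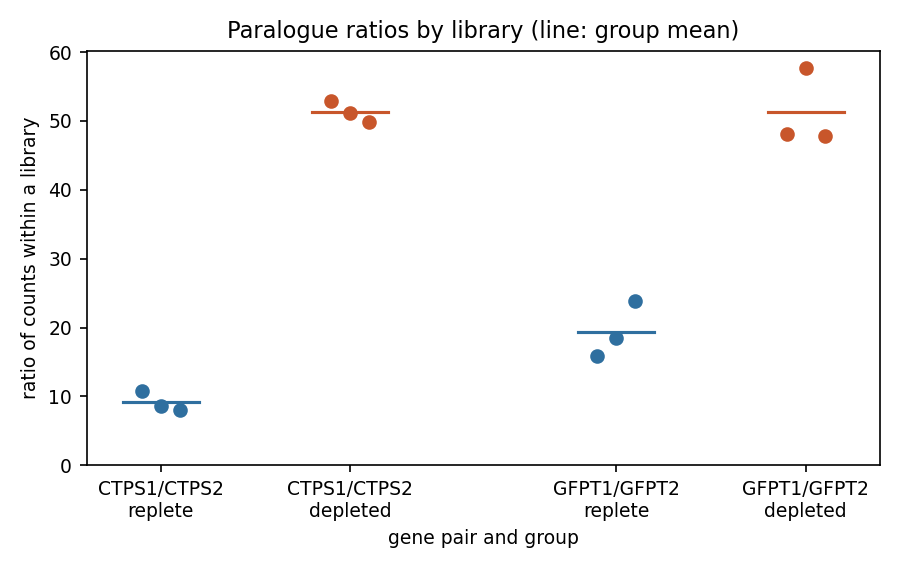
Ratio of counts of CTPS1 to CTPS2 and of GFPT1 to GFPT2 within each library (0.5 added to each count), by group; points are libraries and lines are group means. Both ratios are higher in all 3 depleted libraries, 49.9 to 52.9 against 8.08 to 10.8 for CTPS1 to CTPS2 and 47.8 to 57.7 against 15.9 to 23.8 for GFPT1 to GFPT2.

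SCN9A, NUCB2 and ZNF32-AS1 had the profiles most like that of CTPS2, by the same measure over 8507 genes. SCN9A encodes a voltage-gated sodium channel subunit and NUCB2 a calcium-binding protein, and ZNF32-AS1 is an antisense transcript. Their distances were 0.127, 0.131 and 0.178 and their log2 fold changes −2.11, −2.001 and −2.08. Here too, fold changes near that of CTPS2 follow from the selection.

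PPAT, PFAS and GMPS are the amidotransferases of purine synthesis. GMPS, which aminates XMP to GMP, was counted at 22.4, 23.8 and 21.6 CPM in depleted and at 37.4, 34.5 and 41.3 CPM in replete libraries. The GMPS ranges were more than 10 CPM apart, and its log2 fold change was −0.51 (SE 0.11, 95% interval −0.75 to −0.28, edgeR adjusted p = 0.000776). PPAT, which commits phosphoribosyl pyrophosphate to the purine pathway, was counted at 12.3, 13.6 and 16.6 CPM in depleted and at 21.2, 25.8 and 21.3 CPM in replete libraries. The highest depleted and the lowest replete library of PPAT were within 5 CPM of each other. The log2 fold change of PPAT was −0.46 (SE 0.15, 95% interval −0.78 to −0.14, edgeR adjusted p = 0.0113), and without replete replicate 2 it was −0.38 and did not pass (adjusted p = 0.0598, with 0.000137 to 0.0598 over its alternatives).

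PFAS turns an amide of the purine pathway into an amidine. It was counted at 28.5, 31.4 and 30.2 CPM in depleted and at 40.8, 42.6 and 42.9 CPM in replete libraries. In CPM all depleted libraries lay below all replete ones. The log2 fold change was −0.26 with TMM factors (SE 0.10, 95% interval −0.47 to −0.05, edgeR adjusted p = 0.0237) and −0.49 with library totals alone. The call on PFAS did not hold with DESeq2 (adjusted p = 0.0926). Leaving out depleted replicate 1 (0.0857), depleted replicate 3 (0.0597), replete replicate 2 (0.0531) or replete replicate 3 (0.0703) also took the adjusted p above 0.05. With the GC and length trend removed its log2 fold change was −0.013 (edgeR adjusted p = 0.896), within 0.000344 to 0.905 over all alternatives. That step used the longest annotated transcript, whereas reads came from the 3′ end. Its trend was fitted in each library, so it also takes out any group difference that follows GC content or length. The 3 purine amidotransferases thus all had values below 0 with TMM factors, and GMPS kept its call under all 17 alternatives run.

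PPAT and PAICS, which acts later in the purine pathway, start 137 bases apart on opposite strands in the RefSeq table, as a divergent pair. The E-box match given above for PPAT, 182 bases before its start, lies 40 bases after this start of PAICS, in windows of both genes. PAICS was chosen for this comparison after its values were seen. PAICS had a log2 fold change of −1.10 and PPAT one of −0.46. The ratio of PPAT to PAICS counts was 0.171, 0.235 and 0.230 in depleted and 0.124, 0.148 and 0.132 in replete libraries. The ratio was higher in every depleted library, that is, PAICS fell more than PPAT relative to its replete level, with no test made.

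GFPT1 and GFPT2 start hexosamine synthesis by aminating fructose 6-phosphate, which leads to UDP-GlcNAc for glycosylation. GFPT1 was counted at 165, 149 and 163 CPM in depleted and at 159, 156 and 169 CPM in replete libraries. These ranges overlap, and the group means were 159 ± 8.995 and 161 ± 6.75 CPM (n = 3 per group). The log2 fold change of GFPT1 was 0.21 with TMM factors (SE 0.07, 95% interval 0.05 to 0.37, edgeR adjusted p = 0.0214) but −0.020 with library totals alone, −0.0032 with upper quartile factors and −0.092 with the GC and length trend removed. Leaving out depleted replicate 3 (0.0623), replete replicate 1 (0.121) or replete replicate 2 (0.140) took the adjusted p of GFPT1 above 0.05, within 0.000127 to 0.970 over its alternatives. For GFPT1 no direction held over the scalings tried. The limits of the trend step given for PFAS apply here too.

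GFPT2 was counted at 3.39, 2.52 and 3.35 CPM in depleted and at 9.97, 8.34 and 7.02 CPM in replete libraries. The groups were apart at low levels, 22 to 37 counts per library against 53 to 90. GFPT2 fell 2.74-fold in mean CPM of library totals. With TMM factors its log2 fold change was −1.22 (SE 0.21, 95% interval −1.68 to −0.76, edgeR adjusted p = 0.000149). The ratio of GFPT1 to GFPT2 counts was 48.2, 57.7 and 47.8 in depleted and 15.9, 18.5 and 23.8 in replete libraries. It was 2.67-fold higher in depleted cells, 1.41 on the log2 scale, again at the smallest exact permutation p that 3 against 3 libraries allow (0.1, two-sided, and 0.1 adjusted over the 2 pairs).

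NADSYN1 makes NAD from its acid form. It was counted at 8.43, 7.45 and 3.81 CPM in depleted and at 9.41, 9.35 and 9.93 CPM in replete libraries. Depleted replicate 3 was the low one, and the other depleted libraries were within 3 CPM of the replete ones. The log2 fold change was −0.30 (SE 0.23, 95% interval −0.81 to 0.21, edgeR adjusted p = 0.256), so a fall of up to 0.81 on the log2 scale and a rise of up to 0.21 both lie within its interval. Single libraries moved the value: it was −0.029 without depleted replicate 3 (edgeR adjusted p = 0.886) and −0.52 without depleted replicate 1 (0.0665), with adjusted p from 0.0555 to 0.886 over its alternatives.

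**Figure D3:**
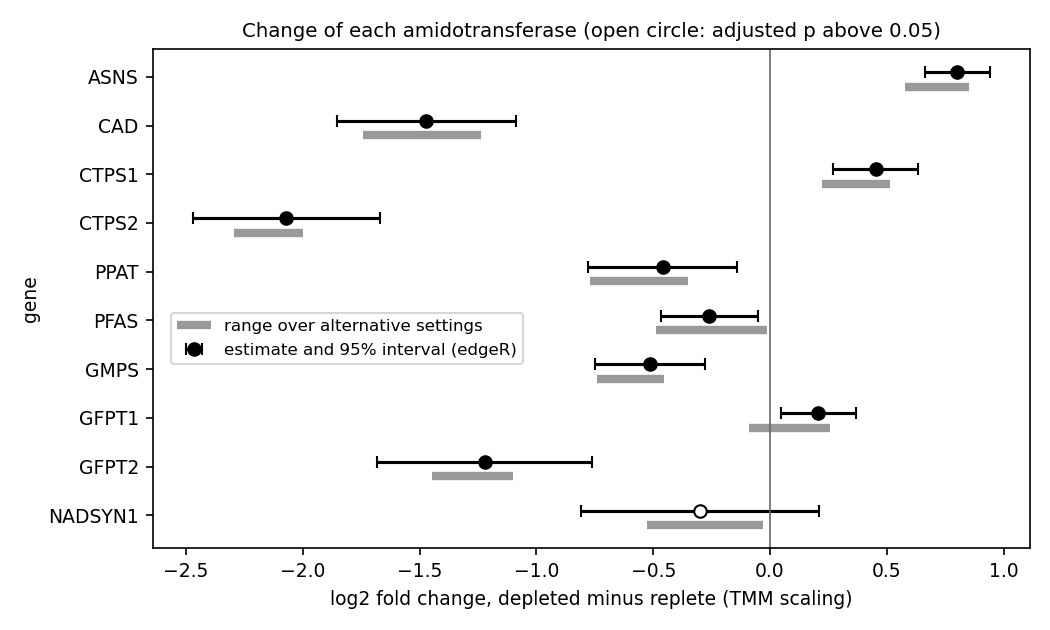
Log2 fold change of each amidotransferase gene (depleted minus replete, TMM scaling) with its 95% interval from edgeR, and in grey the range of its estimates over the alternative settings. CTPS2, CAD and GFPT2 lie at −2.07, −1.47 and −1.22, ASNS and CTPS1 at 0.80 and 0.45, and the grey range of GFPT1 crosses 0, with values below 0 under library totals, upper quartile factors and the GC and length trend.

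By catalytic family, a grouping made after their values were seen, genes of both larger families were called in both directions. CAD, GMPS, PFAS, CTPS1 and CTPS2 carry a glutaminase part of the triad type. Among them CTPS1 was called higher and the other 4 lower, PFAS not under every alternative. ASNS, PPAT, GFPT1 and GFPT2 use an N-terminal cysteine, and among them ASNS was called higher and PPAT and GFPT2 lower, with GFPT1 dependent on the scaling as above. NADSYN1 has a nitrilase-type glutaminase part. Of all tested genes 39.1% were called higher and 39.4% lower, and families of so few genes cannot show whether calls differ by family. The longest GENCODE 29 transcripts of the 10 genes ranged from 2356 bases (ASNS) to 8751 bases (GMPS), and their GC content from 33.8% (PPAT) to 58.2% (PFAS). PPAT lay at the 0.542 percentile and PFAS at the 81.4 percentile of GC content among 12003 tested genes. Removing the GC and length trend lowered the log2 fold change of PPAT by 0.31 and raised that of PFAS by 0.25, so that PPAT then stood at −0.77. For ASNS the same step moved it by −0.013. No exon of the 10 genes overlapped a GENCODE 29 gene whose symbol is a row of the files. ASNS, PPAT and GMPS have 4, 2 and 1 named pseudogenes there, none of which is a row of the files, so reads shared with those copies are uncertain.

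The other enzymes of the same pathways came from lists that hold none of the 10 genes. Beside the counts that follow, 39.1% of all tested genes were called higher and 39.4% lower. In purine synthesis 0 of 9 tested enzymes were called higher and 8 lower, with a median log2 fold change of −1.15. ADSL, adenylosuccinate lyase, was at 119 ± 3.09 CPM with glutamine and 28.2 ± 2.63 CPM without it (SD, n = 3 per group), and fell by 1.85 on the log2 scale at an edgeR adjusted p of 1.15e-09, and IMPDH1, which makes the XMP that GMPS uses, fell by 2.13 on the log2 scale. In pyrimidine nucleotide synthesis 1 of 11 was called higher and 9 lower (median −0.81). The kinase UCK2, which salvages uridine and cytidine, fell by 1.87 and the ribonucleotide reductase subunit RRM2 by 1.23. NME1, a nucleoside diphosphate kinase, was the one called higher (0.48), and its reads can be shared with the NME1-NME2 readthrough gene, as those of UCK2 can with TMCO1 on the other strand. The purine amidotransferases, at −0.26 to −0.51 with TMM factors, lay nearer to 0 than the median of the other purine enzymes, a difference that was not tested. Of those enzymes, ATIC (−0.076, not called) and PRPS1 (−0.48) also lay above −0.51, and the other tested ones lay below it. With the GC and length trend removed, PPAT stood at −0.77, GMPS at −0.74 and PFAS at −0.013. The median of −1.15 is from the main fit, without that step.

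In the hexosamine list 5 of 9 tested genes were called higher and 2 lower (median 0.45), beside 39.1% and 39.4% of all tested genes. With library totals alone 3 were called higher, where 4132 of all 12739 tested genes were, against 4987 with TMM factors. GNPDA1, a deaminase that turns glucosamine 6-phosphate back into fructose 6-phosphate and ammonia, was at 194 ± 2.90 CPM with glutamine and 979 ± 109 CPM without it (SD, n = 3 per group), and rose by 2.57 on the log2 scale at an edgeR adjusted p of 2.55e-11. MGEA5, the O-GlcNAcase, had a log2 fold change of 0.98, and PGM3, the mutase of the pathway, one of −0.90. GNPDA2, the paralogue of GNPDA1, had one of −0.60 at 5.26 ± 1.48 CPM in depleted cells, and did not pass without replete replicate 1 (adjusted p = 0.0516) or replete replicate 2 (0.0607, within 0.000169 to 0.0607 over its alternatives). On the other strand, exons of GNPDA2 overlap GUF1 and those of PGM3 overlap DOP1A. GNPDA1, which runs the GFPT reaction's product back, thus had the largest change of the tested hexosamine genes, beside GFPT1 at 0.21 with TMM factors or −0.020 with library totals and GFPT2 at −1.22.

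Of 8 tested genes for other steps to NAD and NADP, 2 were called higher and 5 lower (median −0.75). Of all tested genes, 39.1% were called higher and 39.4% lower. NAMPT, which salvages nicotinamide, was at 1198 ± 24.5 CPM with glutamine and 408 ± 38.6 CPM without it (SD, n = 3 per group), and fell by 1.33 on the log2 scale at an edgeR adjusted p of 2.04e-09. The mitochondrial NAD kinase NADK2 fell by 2.48, whereas the kynurenine pathway enzyme KYNU had a log2 fold change of 1.65 and NMNAT1, which makes the acid form that NADSYN1 aminates, one of 1.24. For asparagine and aspartate, 4 of 8 tested genes were called higher and 4 lower (median −0.07). With library totals alone 2 were called higher, where 4132 of all 12739 tested genes were. GOT1, which makes cytosolic aspartate from oxaloacetate, was at 139 ± 7.57 CPM with glutamine and 646 ± 28.97 CPM without it (2.45 on the log2 scale), and its mitochondrial counterpart GOT2 fell by 0.98. NARS, which charges tRNA with asparagine, stood at 0.31 on the log2 scale with TMM factors (adjusted p = 0.00184 by edgeR) but at 0.082 with library totals alone (adjusted p = 0.315, within 4.37e-05 to 0.315 over its alternatives). The mitochondrial enzyme NARS2 fell by 1.93, from 10.1 ± 0.733 to 2.20 ± 0.857 CPM.

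**Figure D4:**
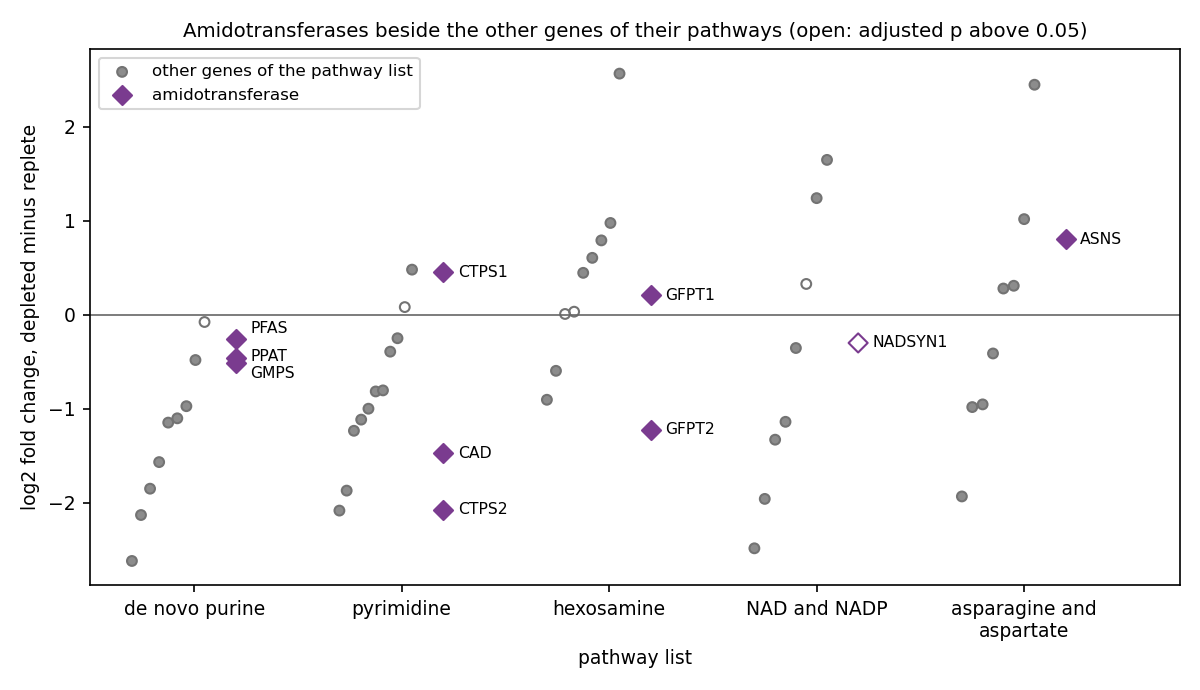
Log2 fold change (depleted minus replete, TMM scaling) of each amidotransferase, as a diamond, beside the other tested genes of its pathway list, as circles in rising order; open symbols had an adjusted p above 0.05. PPAT, PFAS and GMPS lie at −0.46, −0.26 and −0.51 beside purine enzymes with a median of −1.15, and CTPS1 (0.45) and CTPS2 (−2.07) lie on opposite sides of 0; GFPT1, drawn at 0.21, was −0.020 under library totals, −0.0032 under upper quartile factors and −0.092 with the GC and length trend removed.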

How the data were processed

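The members and gene lists were chosen with earlier results of these data known. The authors deposited raw counts per gene symbol, 1 library per file. Per the submitters' processing notes, Bowtie2, edgeR and hg19 were used, with no role or version named; the counting program and its use of strand are not given in the sources used here. Per the labels' protocols, libraries were made from 500 ng of RNA each with a QuantSeq 3′ kit from Lexogen. The labels name no batch.

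Counts of the 286 symbols on several entries were summed. Genes were kept by filterByExpr (minimum count 10, minimum total 15), scaled by TMM factors and tested two-sided in edgeR 4.0.16 (R 4.3.3, quasi-likelihood, robust), with Benjamini-Hochberg adjustment over 12739 genes. TMM factors were 0.917 to 0.929 (depleted) and 1.08 to 1.09 (replete); CPM uses library totals. SE is the log2 fold change divided by the square root of F. Paralogue ratios used counts plus 0.5 and an exact permutation test.

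Named genes were the 10 members, GLUL, ATF4 and the 2 smallest p per direction of each pathway list. The 3 profiles nearest to ASNS and to the member that fell most were also named. SLC38A1, GATB, CCBL2, PAICS, ATIC and PRPS1 were named after their values were seen. Some results under this rule are not reported here. Alternatives were DESeq2 size factors, library totals, upper quartile factors, no filter, a filter at mean CPM 10, a replicate block, DESeq2 1.42.0, limma-voom (limma 3.58.1), the largest entry per symbol, a loess trend (span 0.5) over GC content and length (94.2% of tested genes had both), and leaving out each library.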

Additional observations from a re-analysis of the deposited data

How the results depend on the processing

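ASNS, CTPS1, CTPS2, CAD, GFPT2 and GMPS kept their direction and their call under each alternative that tested them, 16 for CTPS2 and GFPT2 (left out by the mean CPM filter) and 17 for the others. GFPT1 turned to −0.020 with library totals, −0.0032 with upper quartile factors, −0.092 with the GC and length trend removed and −0.091 with that and the replicate block, and GATC turned to −0.068 and −0.050 with library totals and upper quartile factors. Library totals moved the median of all genes by −0.23 and upper quartile factors by −0.21 on the log2 scale, and the cause of the other changes was not tested. Leaving out 1 library at a time gave 2 to 3 amidotransferases called higher and 4 to 6 lower, and 4691 to 5257 genes called higher and 4826 to 5368 lower; the CTPS1 to CTPS2 difference ran from 2.42 to 2.62 and the GFPT1 to GFPT2 difference from 1.28 to 1.57. With the replicate number as a replicate block, 3 amidotransferases were called higher and 6 lower, and 4941 and 4999 genes in all. Same-numbered libraries were correlated in their deviations at 0.119, 0.0061 and 0.037, and 2 of 3 depleted libraries correlated best with the replete library of their own number, a hint from the data and not the design. The labels give 2 groups of 3 libraries and the main fit used the group alone, so the libraries were not treated as paired. The difference in the summed CPM of the 10 genes was 112 with library totals and 253 with TMM-scaled library sizes, and without ASNS it was −70.1 and −1.79. CTPS2, GFPT2 and NADSYN1 had 22 to 92 counts in each depleted library.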

Other observations

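Genes that act on or move glutamine by other routes were also called in both directions. GLS2, the liver-type glutaminase, was called lower (adjusted p = 3.38e-05 by edgeR) at 2, 4 and 1 counts in depleted and 25, 22 and 16 counts in replete libraries, too few for a firm fold, and its exons overlap those of SPRYD4 on the other strand. GLUL, glutamine synthetase, fell, by 0.66 in log2 units (adjusted p = 0.000402 by edgeR). The transporter heavy chain SLC3A2 had a log2 fold change of 2.51 and the transporter SLC38A5 one of −0.83. Over this list of glutamine supply and hydrolysis, 6 of 10 tested genes were called higher and 4 lower, with a median log2 fold change of 0.52. Of all tested genes, 39.1% were called higher and 39.4% lower, so calls in both directions do not set this list apart.

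A further amidotransferase, the mitochondrial GatCAB complex, uses the amide of glutamine to finish the charging of tRNA with glutamine. Its subunit gene QRSL1 was at 12.0 ± 0.987 CPM with glutamine and 18.7 ± 1.77 CPM without it (SD, n = 3 per group) and rose by 0.87 on the log2 scale (adjusted p = 5.49e-05 by edgeR), and GATB fell by 0.61 (adjusted p = 0.00141 by edgeR). GATC was at 0.16 with TMM factors (adjusted p = 0.0325) and at −0.068 with library totals alone and −0.050 with upper quartile factors, within adjusted p of 0.0065 to 0.503, and its exons overlap SRSF9 on the other strand. CCBL1, a glutamine transaminase, fell: it was at 34.6 ± 2.59 CPM with glutamine and 2.64 ± 1.69 CPM without it (−3.50 in log2 units, adjusted p = 6.78e-07 by edgeR), and NIT2, the omega-amidase that opens the product of that reaction, at 55.1 ± 1.39 and 9.34 ± 0.763 CPM (−2.33, adjusted p = 5.93e-10 by edgeR). The other glutamine transaminase of the list, CCBL2, was not called (−0.22, adjusted p = 0.401 by edgeR), with overlapping ranges, and its exons overlap RBMXL1 on the same strand. In this list 2 of 7 tested genes were called higher and 3 lower, beside 39.1% and 39.4% of all tested genes. The median log2 fold change was −0.22. With library totals alone 1 was called higher, where 4132 of all 12739 tested genes were. GATB and CCBL2 were named after their values were seen.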
